A study of Mus musculus with 12 samples.

Results

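The receptor adaptors are the cytoplasmic proteins that join an activated fibroblast growth factor receptor to the Ras and ERK kinase pathway. The members were named by their place in the pathway, with earlier results of these data known, and the rule takes no measured value: it holds all probe sets with a single gene for Frs2, Frs3, Gab1, Grb2, Sos1, Shc1, Plcg1, Ptpn11, Cbl and Crkl. Of these 10 genes, 9 had such probe sets, 26 in all, out of 18193 genes and 34945 single-gene probe sets measured. The expression of Frs2 was not analysed here.

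The study asked which genes respond in brown adipose tissue, a fat that burns fuel to make heat, once the receptor FGFR1 has been activated. The anti-FGFR1 group held 6 adult male ob/ob mice that had each received a single injection of 1 mg/kg of an agonistic antibody against FGFR1 into the peritoneal cavity. The control IgG group held 6 male ob/ob mice that were pair-fed and injected with control IgG. All 12 animals were 3 months old, ate normal chow and carried the ob/ob genotype, which removes the hormone leptin, so no lean or untreated animal stood beside them. Tissue was taken on day 4, and RNA of each mouse was measured on 1 one-colour Affymetrix array. Values are log2 expression, in which a difference of 1 is a doubling, and they come from whole tissue.

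When an FGF binds, the receptor phosphorylates itself and the docking proteins FRS2 and FRS3 at its inner face. FRS proteins, with GAB1, gather GRB2 and the phosphatase SHP2, which Ptpn11 encodes. GRB2 brings SOS1, which loads Ras with GTP and so starts the RAF, MEK and ERK cascade. SHC1 offers GRB2 another docking place, PLCG1 binds the receptor tail and opens a calcium and protein kinase C branch, CRKL leads to the small GTPase Rap1, and CBL attaches ubiquitin to receptors and so marks them for removal. These steps work through phosphorylation and binding of proteins, which arrays of RNA do not measure.

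Promoters are shown for 3 of the adaptors: for Ptpn11 and Cbl, because they held the probe sets that passed the test, and for Crkl, because it shares a motif with Ptpn11 and did not pass. The sequences are from RefSeq (build GRCm38.p6) and cover the 120 bases before the start site, 5′ to 3′ on the gene's strand. They lie at chr5:121191398-121191517 (minus strand) for Ptpn11, chr9:44234047-44234166 (minus strand) for Cbl and chr16:17451865-17451984 (plus strand) for Crkl. Capitals mark exact matches to the cyclic AMP response element TGACGTCA and to the ETS motif CCGGAAG. Shorter or variant ETS sites were not searched and stay in lower case.
Ptpn11: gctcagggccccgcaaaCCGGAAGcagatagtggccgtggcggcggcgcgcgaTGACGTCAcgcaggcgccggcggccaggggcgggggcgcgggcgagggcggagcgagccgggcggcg
Cbl: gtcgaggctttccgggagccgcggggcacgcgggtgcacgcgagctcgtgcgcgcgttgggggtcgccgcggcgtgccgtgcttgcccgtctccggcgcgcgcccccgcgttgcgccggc
Crkl: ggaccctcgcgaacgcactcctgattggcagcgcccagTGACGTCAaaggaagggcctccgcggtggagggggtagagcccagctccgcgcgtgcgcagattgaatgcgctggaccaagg

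ETS factors and the CRE-binding protein CREB are nuclear factors that ERK signalling is known to reach. Both motifs, and the AP-1 motif TGANTCA, were searched on both strands in windows of 250 bases before to 50 after each start site, and the matches did not overlap each other. The CRE stood in 2 of the 13 windows of the adaptor genes, at -67 in Ptpn11 and -82 in Crkl, against 1.79% of all 32851 windows. The ETS motif CCGGAAG stood in 3 of 13, at -103 in Ptpn11, -62 in Frs2 and 23 bases after a start of Shc1, against 8.86% of all windows. AP-1 matched 1 of 13, at -92 of another Shc1 start, against 7.81%. Guanine and cytosine made up 80.8% of the printed bases of Ptpn11, 80.8% of those of Cbl and 66.7% of those of Crkl. A match describes the letters of a window and does not show that a factor binds there.

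Most adaptor transcripts differed little between the brown fat of anti-FGFR1 and control IgG mice. Ptpn11 was the exception at the level of genes, at 1.15-fold lower after anti-FGFR1. Of the 26 probe sets, 3 fell, 2 of Ptpn11 and 1 of Cbl, and 0 rose (limma, adjusted p under 0.05). At an unadjusted p under 0.05, 6 were lower and 1 was higher. The share of all single-gene probe sets or genes at that unadjusted threshold was not counted. Nothing is read from such unadjusted counts here or below. The share called, 11.5% of the adaptor probe sets, stands beside 6.9% of all 34945 single-gene probe sets in either direction and 4.75% lower after anti-FGFR1. It rests on 3 calls in 2 genes, and its difference from the background was not tested.

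With 1 probe set per gene, the one with the highest mean over all 12 arrays, 1 of 9 adaptor genes fell and 0 rose by limma, with the same 1 at an unadjusted p under 0.05. That is 11.1% of the genes, against 8.03% of all 18193 genes called in either direction, 5.09% lower and 2.94% higher. The log2 difference was below 0 for 8 of the 9 genes and for 21 of the 26 probe sets. The sizes were small: the median log2 difference was -0.04 for the adaptor genes and 0.0091 for all genes, and the median absolute difference was 0.044 for the adaptor genes and 0.073 for all genes. In the 8 genes that were not called, the 95% intervals of the log2 difference on that 1 probe set lay between -0.24 and 0.13. A fall of more than 1.18-fold lay outside each of these intervals. Over the 23 probe sets not called, the intervals reached from -0.35 to 0.25. Larger falls thus lay inside the intervals of other probe sets of these genes, as for Sos1 1421886_at and Gab1 1417694_at. The median within-group SD was 0.12 for adaptor probe sets and 0.117 for all.

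**Figure D1:**
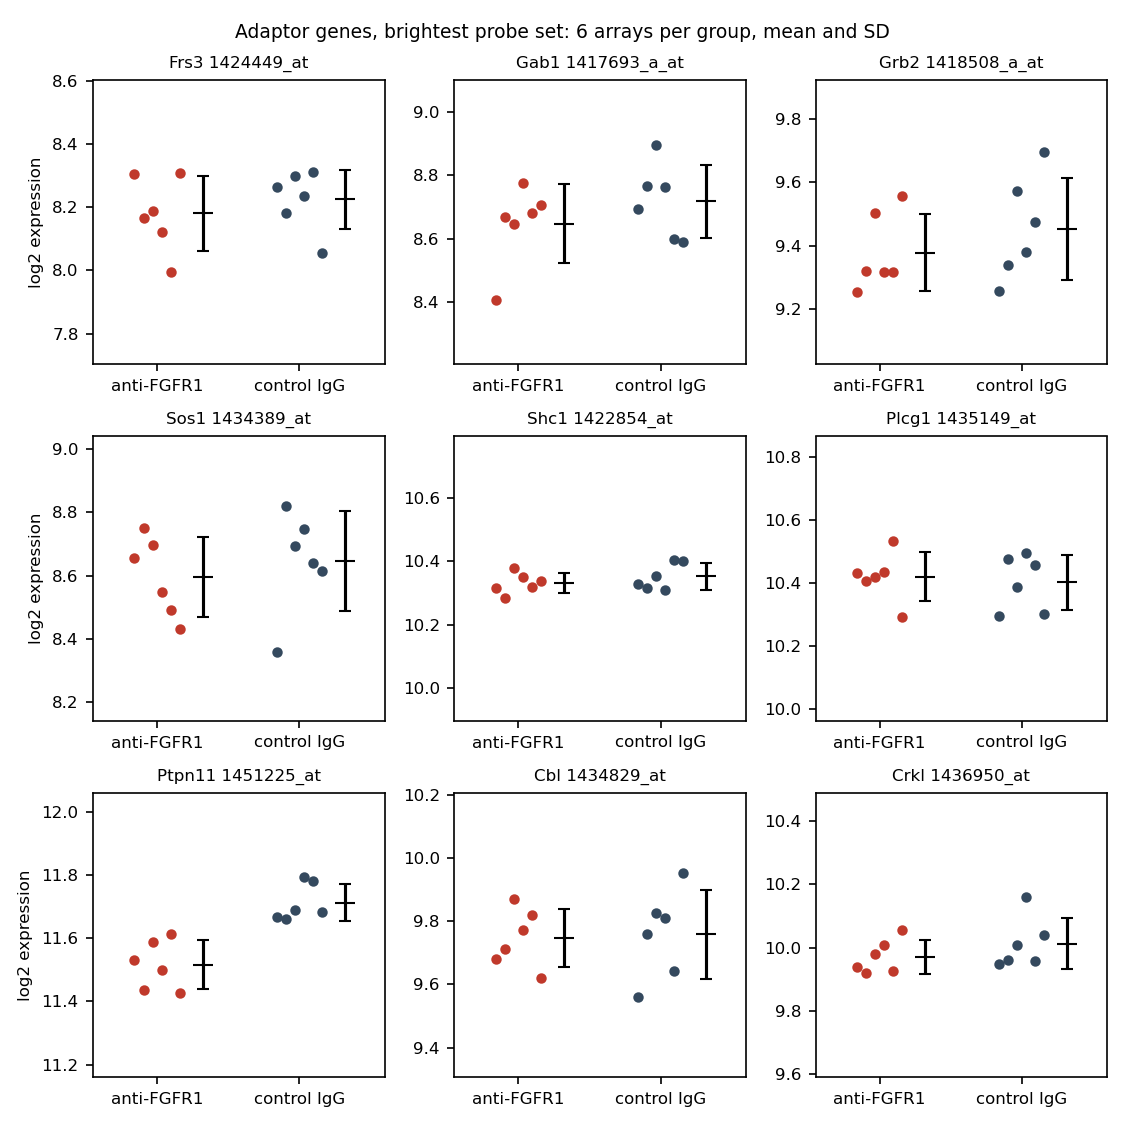
Log2 expression of the 9 adaptor genes, 1 panel each, on the probe set with the highest mean; points are arrays (6 anti-FGFR1 at left in red, 6 control IgG at right in blue) and bars are mean and SD. The groups are apart in Ptpn11, with means of 11.5 after anti-FGFR1 and 11.7 after control IgG, and overlap in the other 8 panels.

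The docking proteins come first in the pathway. Frs3, the FRS family member measured here, docks GRB2 and SHP2 at the receptor. Its only probe set, 1424449_at, had a lowest, median and highest log2 level of 7.99, 8.18 and 8.31 in anti-FGFR1 mice, against 8.06, 8.25 and 8.31 in control IgG mice. The ranges overlapped almost fully, and the log2 difference was -0.04 ± 0.06 (SE, n = 6 per group, limma adjusted p = 0.749).

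Gab1 encodes a large docking protein that binds GRB2 and recruits SHP2 and phosphoinositide 3-kinase. Its probe set with the highest mean, 1417693_a_at, read 8.41, 8.67 and 8.77 (lowest, median, highest) in anti-FGFR1 mice, against 8.59, 8.73 and 8.90 in control IgG mice. The log2 difference was -0.07 ± 0.07 (SE, limma adjusted p = 0.610), and the groups overlapped. Probe set 1417694_at read 8.43, 8.54 and 8.66 in anti-FGFR1 mice, against 8.39, 8.77 and 8.88 in control IgG mice. Here the lowest of all 12 arrays was a control, replicate 5, while the other 5 controls lay at or above 8.72, higher than every anti-FGFR1 array. With all arrays the log2 difference was -0.18 ± 0.07 (limma adjusted p = 0.157); without control IgG replicate 5 it was -0.25 ± 0.05 and passed (limma adjusted p = 0.0108). The third probe set, 1448814_at, had medians of 7.81 in anti-FGFR1 mice and 7.81 in control IgG mice, with a log2 difference of -0.01 (limma adjusted p = 0.943). All 3 probe sets carry the same transcript accession, and with group means removed their values over the 12 arrays correlated at Pearson's r between 0.10 and 0.51 (Spearman's rho 0.098 to 0.20).

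Grb2 encodes the adaptor whose SH2 domain reads phosphotyrosine and whose SH3 domains hold SOS1. Probe set 1418508_a_at read 9.25, 9.32 and 9.56 in anti-FGFR1 mice, against 9.26, 9.43 and 9.70 in control IgG mice, with a log2 difference of -0.07 ± 0.08 (limma adjusted p = 0.637). Probe set 1449111_a_at read 9.01, 9.25 and 9.34 in anti-FGFR1 mice, against 8.98, 9.20 and 9.35 in control IgG mice, with a log2 difference of 0.02 ± 0.07 (limma adjusted p = 0.900). The groups overlapped on both, which share an accession and correlated at r = 0.80 (rho = 0.78) with group means removed. Among controls both were lowest on replicate 1 and highest on replicate 6. These are also the control arrays with the lowest and the highest mean of 14 macrophage markers, 9.82 and 10.5. Among controls, the mean of 12 endothelial markers was likewise lowest and highest on these arrays, at 9.59 and 9.83. The part of either cell type in the Grb2 values was not tested. With the macrophage mean as a covariate the log2 difference of Grb2 was -0.22 ± 0.06 and passed over genes (limma adjusted p = 0.0443). Over probe sets neither passed with it, at -0.22 (1418508_a_at, limma adjusted p = 0.0549) and -0.12 (1449111_a_at, 0.195). With the 3′ to 5′ difference of control probe sets, a measure of RNA quality, as the covariate, Grb2 stood at 0.02 ± 0.09 over genes (limma adjusted p = 0.941). Probe set 1449111_a_at then stood at 0.14 (limma adjusted p = 0.435). Among controls the 3′ to 5′ difference was highest on replicate 1, at 0.221.

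Sos1, the exchange factor that activates Ras, had 5 probe sets, which did not share a direction. Its probe set with the highest mean, 1434389_at, read 8.43, 8.60 and 8.75 in anti-FGFR1 mice, against 8.36, 8.67 and 8.82 in control IgG mice (log2 difference -0.05 ± 0.08, limma adjusted p = 0.767). Probe set 1421884_at had less spread and read 8.14, 8.20 and 8.27 in anti-FGFR1 mice, against 8.24, 8.32 and 8.41 in control IgG mice. On it 5 of 6 anti-FGFR1 arrays lay below all controls, and the log2 difference of -0.13 ± 0.04 did not pass (limma adjusted p = 0.107). The dim probe set 1421886_at read 5.32, 5.42 and 5.70 in anti-FGFR1 mice, against 5.46, 5.69 and 5.78 in control IgG mice (log2 difference -0.19 ± 0.07, limma adjusted p = 0.157). A further dim probe set, 1431311_at, differed the other way, with medians of 5.33 in anti-FGFR1 mice and 5.21 in control IgG mice and a log2 difference of 0.13 ± 0.06 (limma adjusted p = 0.214). The fifth, 1421885_at, differed by 0.03 ± 0.06. No Sos1 probe set passed, and 3 of the 5 were below 0.

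Shc1 encodes the SH2 and PTB domain adaptor that carries GRB2 to many tyrosine kinase receptors. Its probe set 1422854_at was among those with the least spread, with a within-group SD of 0.038, below which lay 0.475% of single-gene probe sets. It read 10.29, 10.33 and 10.38 in anti-FGFR1 mice, against 10.31, 10.34 and 10.40 in control IgG mice. The groups overlapped, with a log2 difference of -0.02 ± 0.04 (95% interval -0.11 to 0.07, limma adjusted p = 0.820). The other probe set, 1422853_at, differed by -0.06 ± 0.09 and was more variable.

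**Figure D2:**
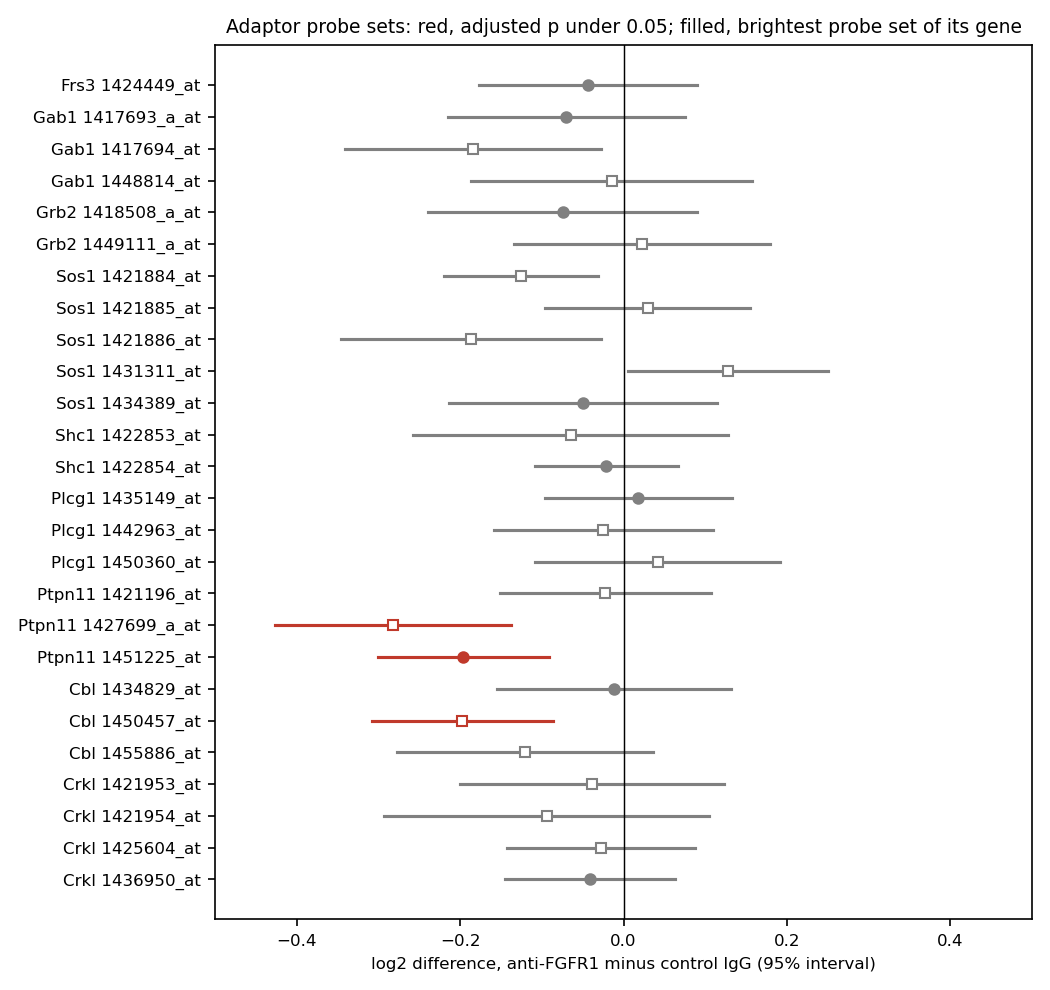
Log2 difference (anti-FGFR1 minus control IgG) of all 26 adaptor probe sets with 95% intervals from limma; red marks an adjusted p under 0.05 and filled circles mark the probe set with the highest mean of its gene. The 3 red intervals, 2 of Ptpn11 and 1 of Cbl, lie below 0, and the 23 grey point values lie between -0.19 and 0.13.

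Plcg1 encodes phospholipase C gamma, which the FGF receptor binds and phosphorylates directly. Probe set 1435149_at read 10.29, 10.43 and 10.53 in anti-FGFR1 mice, against 10.29, 10.42 and 10.49 in control IgG mice. The groups coincided, and the log2 difference was 0.02 ± 0.05 (95% interval -0.10 to 0.13, limma adjusted p = 0.888). The other probe sets differed by -0.03 ± 0.06 (1442963_at) and 0.04 ± 0.07 (1450360_at), and neither passed.

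Ptpn11 was the adaptor gene whose level fell. It encodes SHP2, the tyrosine phosphatase that FRS2 and GAB1 recruit and that full activation of ERK by growth factors requires. Probe set 1451225_at read 11.43, 11.52 and 11.61 (lowest, median, highest) in anti-FGFR1 mice, against 11.66, 11.69 and 11.79 in control IgG mice. The mean was 11.5 ± 0.077 in anti-FGFR1 mice and 11.7 ± 0.059 in control IgG mice (SD, n = 6 each). All 6 anti-FGFR1 arrays lay below the lowest control, and the log2 difference was -0.20 ± 0.05 (SE), or 1.15-fold lower (limma adjusted p = 0.0253 over probe sets and 0.0185 over genes). By p, Ptpn11 ranked 856 among the 18193 genes. Probe set 1427699_a_at read 7.33, 7.46 and 7.49 in anti-FGFR1 mice, against 7.54, 7.70 and 7.97 in control IgG mice. Again no anti-FGFR1 array reached the lowest control, and the log2 difference was -0.28 ± 0.07, or 1.22-fold lower (limma adjusted p = 0.0205). The dim probe set 1421196_at did not separate the groups: it read 5.82, 5.89 and 5.99 in anti-FGFR1 mice, against 5.76, 5.93 and 6.11 in control IgG mice (log2 difference -0.02 ± 0.06, limma adjusted p = 0.877). With group means removed, the 2 probe sets that fell correlated at r = 0.48 (rho = 0.60) over the 12 arrays.

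The Ptpn11 call held over genes without any 1 array, with limma adjusted p between 0.0171 and 0.0443, and was lost with the 3′ to 5′ difference of control probe sets, a measure of RNA quality, as a covariate (-0.18 ± 0.06, limma adjusted p = 0.132). Over probe sets, 1451225_at missed the threshold without control IgG replicate 4 or anti-FGFR1 replicate 2, 4 or 6 (-0.19 to -0.18, limma adjusted p 0.0526 to 0.0593), and 1427699_a_at missed it without anti-FGFR1 replicate 2 (-0.26, limma adjusted p = 0.0501).

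Cbl encodes a ubiquitin ligase that binds activated receptors, directly or through GRB2, and ends their signal. Its 3 probe sets disagreed. Probe set 1450457_at read 7.54, 7.62 and 7.75 in anti-FGFR1 mice, against 7.75, 7.83 and 7.92 in control IgG mice. The 6 anti-FGFR1 arrays lay below the lowest control, the highest of them only just, at 7.748 against 7.751. The log2 difference was -0.20 ± 0.05, or 1.15-fold lower (limma adjusted p = 0.0325). The probe set with the highest mean, 1434829_at, read 9.62, 9.74 and 9.87 in anti-FGFR1 mice, against 9.56, 9.78 and 9.95 in control IgG mice, a log2 difference of -0.01 ± 0.07 (limma adjusted p = 0.944). Probe set 1455886_at read 9.02, 9.15 and 9.21 in anti-FGFR1 mice, against 9.05, 9.24 and 9.49 in control IgG mice, a log2 difference of -0.12 ± 0.07 (limma adjusted p = 0.377). With group means removed, these last 2 correlated with each other at r = 0.90 (rho = 0.90) and with 1450457_at at r = 0.02 and 0.16 (rho = 0.028 and 0.11). Among controls, both were lowest on replicate 1 and highest on replicate 6, as both Grb2 probe sets were. The call of 1450457_at was lost without any 1 of control IgG replicates 3, 4 and 6 and anti-FGFR1 replicates 2, 3, 5 and 6 (-0.20 to -0.18, limma adjusted p 0.0527 to 0.0745). As a gene, Cbl was not called.

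**Figure D3:**
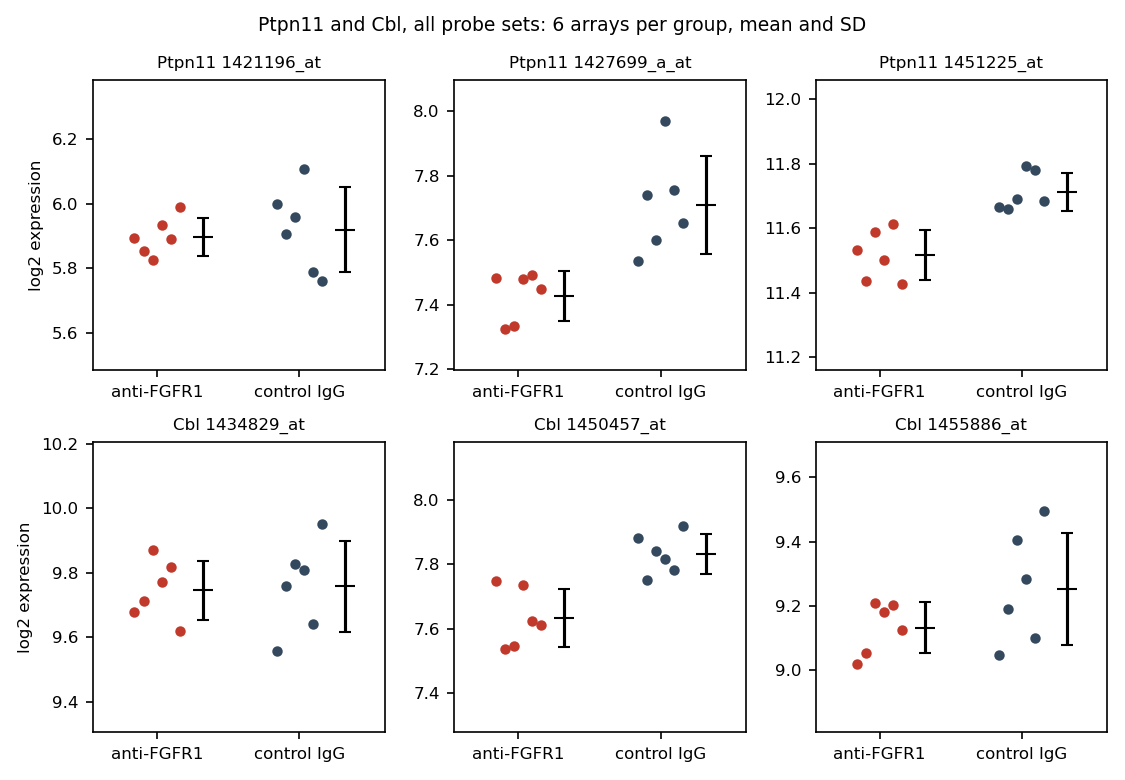
Log2 expression on each array for the 3 probe sets of Ptpn11 (top) and the 3 of Cbl (bottom), with 6 anti-FGFR1 arrays at left in red, 6 control IgG arrays at right in blue, and mean and SD. The groups do not overlap on 1427699_a_at and 1451225_at of Ptpn11 or 1450457_at of Cbl, and they overlap on the other 3.

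Crkl, whose protein binds a Rap1 exchange factor, had 4 probe sets, all slightly below 0. The one with the highest mean, 1436950_at, read 9.92, 9.96 and 10.05 in anti-FGFR1 mice, against 9.95, 9.98 and 10.16 in control IgG mice. The groups overlapped (log2 difference -0.04 ± 0.05, limma adjusted p = 0.687). The other 3 differed by -0.04 (1421953_at), -0.09 (1421954_at) and -0.03 (1425604_at), with limma adjusted p between 0.621 and 0.823.

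All 6 anti-FGFR1 arrays lay below, or all 6 above, the control range on 3 of the 26 adaptor probe sets, 11.5%, against 4.56% of all single-gene probe sets. These were the same 3 that passed limma.

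Several measures of tissue make-up and RNA quality also differed between the groups. The RNA came from whole tissue, so fewer cells of a type and less RNA per cell cannot be told apart. Brown adipocyte markers averaged 13.1 ± 0.059 in anti-FGFR1 mice and 13.0 ± 0.099 in control IgG mice (SD, n = 6 each, exact permutation p = 0.00866). Of 12 listed markers 10 were measured, the lowest at a mean level of 9.82, and 2 were called, both higher. Beside the marker counts here and below, 5.09% of all genes fell by limma and 2.94% rose. Endothelial markers averaged 9.46 ± 0.089 in anti-FGFR1 mice (range 9.33 to 9.55) and 9.70 ± 0.084 in control IgG mice (9.59 to 9.83), and 7 of 12 fell. Smooth muscle and pericyte markers averaged 9.70 ± 0.082 in anti-FGFR1 mice (9.60 to 9.79) and 10.05 ± 0.068 in control IgG mice (9.93 to 10.1), and 7 of 10 fell. Both means separated the groups on every array, as Ptpn11 did, and for both the exact permutation p was 0.0022, which is as small as 924 assignments allow. Lymphocyte markers separated them in the other direction, at 6.58 ± 0.093 in anti-FGFR1 mice (6.47 to 6.71) and 6.39 ± 0.047 in control IgG mice (6.33 to 6.44; exact permutation p = 0.0022), with 2 of 11 higher. The lymphocyte mean lay below the array medians of 7.19 to 7.23, and the lowest of the 11 markers had a mean level of 4.89. The part of these cell types in the Ptpn11 and Cbl values was not tested.

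Macrophage markers averaged 10.3 ± 0.14 in anti-FGFR1 mice (10.1 to 10.5) and 10.1 ± 0.27 in control IgG mice (9.82 to 10.5; exact permutation p = 0.0693), with 3 of 14 higher. Skeletal muscle markers ranged from 7.04 up to 11.3 over anti-FGFR1 arrays and from 9.45 up to 11.5 over control IgG arrays (exact permutation p = 0.541), with 0 of 12 called by limma and 0 at an unadjusted p under 0.05. The mean 3′ minus 5′ difference of the Actb and Gapdh control probe sets, which grows as RNA is shortened, was 0.203 ± 0.027 in anti-FGFR1 mice and 0.161 ± 0.031 in control IgG mice (exact permutation p = 0.0368). Of its parts, the Actb difference was 0.405 ± 0.051 in anti-FGFR1 mice and 0.335 ± 0.049 in control IgG mice (exact permutation p = 0.0433), and the Gapdh difference was 0.0012 ± 0.030 in anti-FGFR1 mice and -0.013 ± 0.039 in control IgG mice (exact permutation p = 0.506). With this mean as a covariate 0 of 26 adaptor probe sets and 0 of 9 adaptor genes passed limma, and the calls over all single-gene probe sets fell to 950 with it, against 2411 without. The log2 difference of Ptpn11 was then -0.18 ± 0.06 on 1451225_at (limma adjusted p = 0.165) and -0.19 ± 0.08 on 1427699_a_at (0.265), and that of Cbl 1450457_at was -0.19 ± 0.07 (0.189). With the macrophage mean as a covariate the same 3 stood at -0.20, -0.26 and -0.20 and missed the threshold (limma adjusted p 0.0501, 0.0616 and 0.0560), whereas Cbl 1455886_at passed at -0.28 ± 0.05 (0.00374). All 3 passed when the covariate was the skeletal muscle mean.

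**Figure D4:**
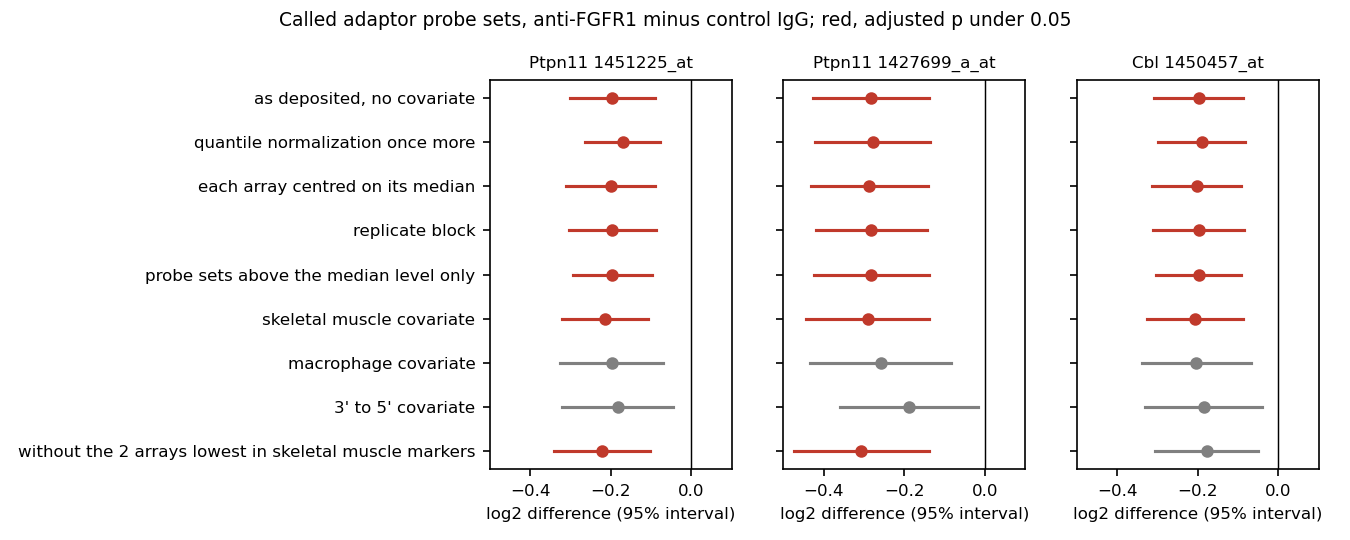
Log2 difference (anti-FGFR1 minus control IgG, 95% interval) of the 3 adaptor probe sets that fell, under 9 ways of fitting, top to bottom; red marks an adjusted p under 0.05. Every interval lies below 0, and all 3 probe sets are grey with the macrophage and the 3′ to 5′ covariates, with Cbl also grey without the 2 arrays lowest in skeletal muscle markers.

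Relatives of the adaptors, 25 genes of the same protein families, were all measured. By limma 2 fell, 0 rose and 23 were not called, where 5.09% of all genes fell and 2.94% rose. At an unadjusted p under 0.05, 3 were higher and 2 lower. The median log2 difference of the relatives was 0.03. Grap, a close relative of Grb2 known mainly from lymphocytes, read 6.55, 6.94 and 7.20 (lowest, median, highest) in anti-FGFR1 mice, against 7.34, 7.68 and 7.80 in control IgG mice. The groups did not overlap, and the log2 difference was -0.69 ± 0.11, or 1.61-fold lower (limma adjusted p = 0.00150). The mean of the lymphocyte markers was higher in the anti-FGFR1 mice, as given above. Those of the endothelial and of the smooth muscle and pericyte markers were lower. The part of these cell types in the Grap value was not tested. Grb14, an adaptor that inhibits the insulin receptor and also binds FGF receptors, read 10.75, 10.87 and 10.98 in anti-FGFR1 mice, against 10.95, 11.17 and 11.33 in control IgG mice. On it 5 of 6 anti-FGFR1 arrays lay below all controls, and the log2 difference was -0.30 ± 0.07 (limma adjusted p = 0.0170). Its dim second probe set differed by -0.01, and Grb14 no longer passed once the 3′ to 5′ difference (limma adjusted p = 0.0884) or the macrophage mean (0.0601) was a covariate. Plcg2, the blood cell form of phospholipase C gamma, had a log2 difference of 0.21 ± 0.07, short of the threshold (limma adjusted p = 0.0725).

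Downstream of the adaptors, the Ras to ERK core had 14 measured genes of 21 listed. By limma 3 fell, 0 rose and 11 were not called, where 5.09% of all genes fell and 2.94% rose. At an unadjusted p under 0.05, 5 were lower and 2 higher. The median log2 difference was -0.04. Rras2, a Ras-related GTPase, read 9.96, 10.06 and 10.18 in anti-FGFR1 mice, against 10.39, 10.57 and 10.76 in control IgG mice. The groups were well apart, with a log2 difference of -0.51 ± 0.06, or 1.43-fold lower (limma adjusted p = 0.000234), and its other probe set also fell, by 0.24 on the log2 scale. Braf, a kinase that Ras activates and that phosphorylates MEK, read 9.47, 9.53 and 9.65 in anti-FGFR1 mice, against 9.69, 9.79 and 9.87 in control IgG mice. All 6 anti-FGFR1 arrays were below the controls (log2 difference -0.25 ± 0.05, limma adjusted p = 0.00385). Of the 9 Braf probe sets 3 fell, and 2 dimmer ones stood at 0.06 and 0.06; with the mean of all 9, Braf was not called (-0.10 ± 0.04, limma adjusted p = 0.119). Ppp1cb, the catalytic phosphatase subunit that works with SHOC2 to activate RAF, differed by -0.22 ± 0.06 (limma adjusted p = 0.0425), a call lost in 9 of the 12 fits without 1 array.

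On the branches to phosphoinositide 3-kinase, phospholipase C, Rap1 and ubiquitin, 20 of 21 listed genes were measured. By limma 1 fell, 0 rose and 19 were not called, where 5.09% of all genes fell and 2.94% rose. At an unadjusted p under 0.05, 2 were lower and 3 higher. The median log2 difference was 0.0018. The gene that fell was Pik3r1, the regulatory subunit of phosphoinositide 3-kinase that GAB1 recruits. It read 10.28, 10.41 and 10.53 in anti-FGFR1 mice, against 10.57, 10.72 and 10.87 in control IgG mice. No array overlapped, and the log2 difference was -0.31 ± 0.06, or 1.24-fold lower (limma adjusted p = 0.00553). All 4 of its probe sets fell, with log2 differences between -0.54 and -0.31. Rapgef1, which encodes the Rap1 exchange factor bound by CRKL, narrowly missed the threshold as a gene (-0.18 ± 0.05, limma adjusted p = 0.0503), while its dimmer probe set passed (-0.32 ± 0.08, limma adjusted p = 0.0213). Akt2, a kinase of that branch, had a log2 difference of 0.13 ± 0.05, short of the threshold (limma adjusted p = 0.134).

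Upstream, 0 of the 7 FGF receptors and klotho co-receptors were called by limma, where 5.09% of all genes fell and 2.94% rose. At an unadjusted p under 0.05, 2 were lower and 1 higher. Fgfr1, which the antibody binds, read 10.18, 10.49 and 10.67 in anti-FGFR1 mice, against 10.46, 10.62 and 10.78 in control IgG mice (log2 difference -0.20 ± 0.09, limma adjusted p = 0.197). The ranges overlapped. Kl, which encodes the co-receptor klotho and had the smallest p of the 7, read 6.11, 6.19 and 6.29 in anti-FGFR1 mice, against 5.86, 6.04 and 6.23 in control IgG mice. Its log2 difference of 0.15 ± 0.06 did not pass (limma adjusted p = 0.136), and 2 of 6 anti-FGFR1 arrays lay above all controls. This Kl probe set was dim, with 24.1% of single-gene probe sets dimmer, and the other one differed by 0.05 ± 0.08 (limma adjusted p = 0.749). Fgfrl1, a receptor without a kinase domain, had a log2 difference of -0.14 ± 0.06 on the probe set with the higher mean, short of the threshold, while the other probe set passed at -0.23 ± 0.05 (limma adjusted p = 0.0146).

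**Figure D5:**
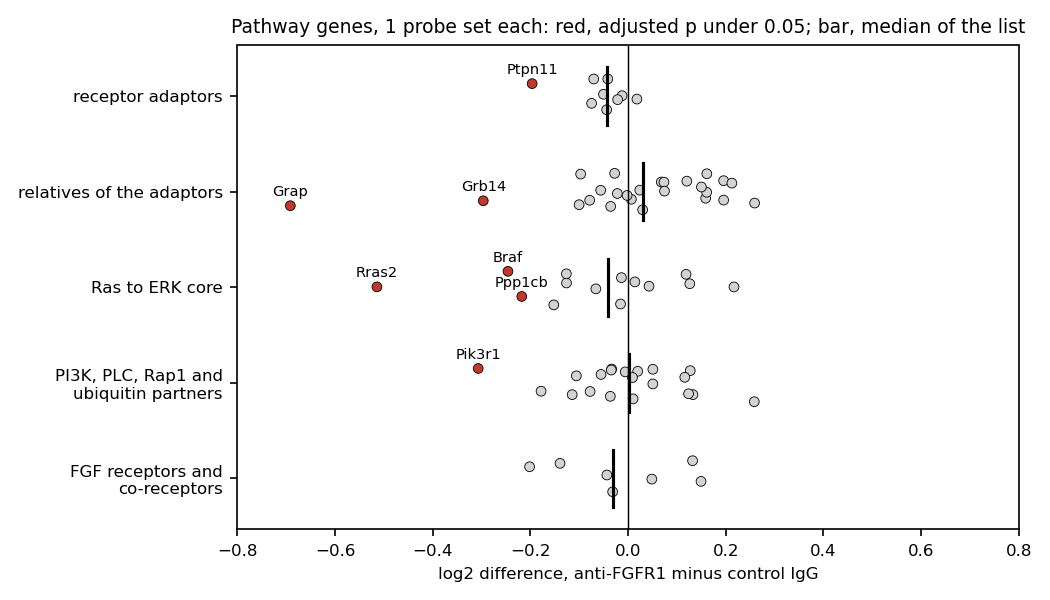
Log2 difference (anti-FGFR1 minus control IgG) of each measured gene, 1 probe set each, in the adaptor set (top) and 4 companion lists; red marks an adjusted p under 0.05 and bars are list medians. The adaptors lie between -0.20 and 0.02, and the 6 named companions that fell lie between -0.69 and -0.22.

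Among the 66 companion genes in these 4 lists, 6 fell by limma, and of all 18193 genes 5.09% fell; nothing is read from that count. Of these 6, Grap, Rras2, Pik3r1 and Braf kept their calls under each covariate tried and without any 1 array.

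By Pearson's r over the 12 arrays, the genes most like Ptpn11 were Zfp930 (r = 0.94, rho = 0.94), Inafm2 (r = 0.94, rho = 0.93) and Itpk1, an inositol phosphate kinase (r = 0.93, rho = 0.94). All were lower after anti-FGFR1, with log2 differences of -0.21, -0.29 and -0.30. The r that picked them kept the group difference of Ptpn11, so this shared direction was largely set by the choice. With group means removed, r with Ptpn11 was 0.82, 0.75 and 0.75. The genes most like Gab1, the adaptor with the next smallest p, were Ubxn4 (r = 0.87, rho = 0.78), Cck (r = 0.85, rho = 0.74) and Sox9 (r = 0.83, rho = 0.54). None of these passed limma, and the closeness of Sox9 was weaker by rank. The best matches were picked out of 18193 genes on the same arrays, so these values describe the arrays and carry no p.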

How the data were processed

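The deposited table holds log2 expression values for 45101 probe sets on 12 arrays, between 3.16 and 14.9, with array medians of 7.19 to 7.23. Per the submitters' processing notes the authors used RMA, which corrects background, normalizes between arrays and summarises probes, and limma, with no versions given. RMA compresses small changes of dim probe sets. The log2 values were used as deposited. The arrays' mean correlation to their own group was 0.993 to 0.996, and no pair shared more than 0.0665% of values. The precision is limited by 6 arrays per group.

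Names came from the probe annotation of the platform, updated by Entrez identifier to RefSeq genes of GRCm38.p6 (34741 of 34945 single-gene probe sets matched); 932 probe sets with several genes, 9211 with no entry and 64 control probe sets were left out. No genome build is given for the values.

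The comparison used lmFit and eBayes of limma (version 3.58.1, under R 4.3.3 with the data.table package, version 1.17.8), two-sided and without covariates, with Benjamini-Hochberg adjustment over all 34945 probe sets, or over 18193 genes. Called means an adjusted p under 0.05. The fit was tested on simulated data. Means per array were compared by a two-sided exact permutation test over 924 assignments. All adaptor probe sets are named whatever their values, with the 3 genes of smallest p in each companion list and the 3 most like the top 2 adaptors. The adaptors and lists were chosen with earlier results of these data known. The sample titles give replicate numbers and do not say whether these pair the mice, and the main fit used no pairing. Deviations of same-numbered arrays correlated between -0.29 and 0.33, over 0.1 in 3 of 6 pairs, which cannot settle it. The alternatives were a second quantile normalization, median centring, a replicate block, 3 covariates, a filter on dim probe sets, the mean of a gene's probe sets, leaving out each array and, chosen after seeing the data, leaving out the 2 arrays lowest in skeletal muscle markers (anti-FGFR1 replicate 5 and control IgG replicate 6).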

Additional observations from a re-analysis of the deposited data

Results flagged for a closer look

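Single arrays stood apart from the other 5 of their group by Dixon's test in 9 of the 66 groups of 6 values examined, where chance alone gives about 1 in 20. Gab1 held 4 of them. On 1417693_a_at, anti-FGFR1 replicate 1 was low at 8.41, with the nearest array at 8.65. On 1417694_at, control IgG replicate 5 was low at 8.39, nearest 8.72. On 1448814_at, anti-FGFR1 replicate 2 was low at 7.40, nearest 7.76, and control IgG replicate 5 was low at 7.53, nearest 7.76. Control IgG replicate 5 was thus low on 2 Gab1 probe sets, which share an accession.

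Among the other adaptors, anti-FGFR1 replicate 1 was high on Sos1 1431311_at at 5.54, nearest 5.34, control IgG replicate 6 was low on Plcg1 1450360_at at 6.21, nearest 6.49, and control IgG replicate 1 was low on Crkl 1421954_at at 7.49, nearest 7.69. Of the measures per array, the skeletal muscle mean was low on anti-FGFR1 replicate 5 at 7.04, nearest 10.2, and the 3′ to 5′ difference was high on control IgG replicate 1 at 0.221, nearest 0.163. None of these probe sets was called with all arrays.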

How the results depend on the processing

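The count of adaptor probe sets called, 3, was 0 with the 3′ to 5′ covariate and 1 with the macrophage covariate, and ranged between 0 and 4 when 1 array was left out: 0 without anti-FGFR1 replicate 2, 1 without anti-FGFR1 replicate 6 or control IgG replicate 4, and 4 without control IgG replicate 5. The count of adaptor genes called, 1, was 0 with the 3′ to 5′ covariate, where Ptpn11 stood at -0.18 ± 0.06 (limma adjusted p = 0.132), and 2 with the macrophage covariate (Ptpn11 and Grb2); it was 1 to 1 when 1 array was left out. Over all single-gene probe sets the calls numbered 2411, against 950 and 3290 with these covariates; the cause was not tested. With the replicate number as a block, 3 probe sets and 1 gene were called (Ptpn11, limma adjusted p = 0.031); no call changed, and 2 of 6 anti-FGFR1 arrays correlated best with the control of their own number. Signs turned only for genes that were not called: Frs3 was 0.0273 with the macrophage covariate; Grb2 0.0208, Cbl 0.0442 and Crkl 0.0143 with the 3′ to 5′ covariate; Shc1 0.0123 and Cbl 0.0294 after a second quantile normalization; Plcg1 -0.0245 and Cbl 0.0121 without the 2 arrays lowest in skeletal muscle markers. Leaving out 1 array moved Plcg1 between -0.0046 and 0.044 and Cbl between -0.052 and 0.0267. Without those 2 low-muscle arrays Cbl 1450457_at was at -0.18 (limma adjusted p = 0.115) and 2 of 26 probe sets were called. Precision is limited by 6 arrays per group.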
